A study of Cyanidioschyzon merolae with 8 samples.

Results

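The antenna genes of Cyanidioschyzon merolae, a single-celled red alga from acidic hot springs, were followed through darkness and light. They are 5 of the 5091 gene IDs in the deposited table, all on nuclear chromosomes, and were taken by ID: CMQ142C, CMN234C and CMN235C, which encode the light-harvesting chlorophyll proteins Lhcr1, Lhcr2 and Lhcr3, and CMO250C and CMP166C, which encode the phycobilisome linkers ApcC and CpcC. The names come with the choice of the genes, since the table itself pairs no ID with a name. Wild-type cells of strain 10D were grown in acid medium of pH 2.3 at 42 °C under constant illumination at 100 µmol m-2 s-1, then kept dark for 36 h. There were 4 groups of 2 biological replicates, 8 libraries in all: cells lit with blue light for 30 min (15 µmol m-2 s-1), others of the same experiment left dark (the blue dark control), cells given 30 min of red light of unstated intensity, and cells of that experiment left dark (the red dark control). The wavelength listed for the light meter is 365 nm for blue and 630 nm for red light. Expression is given as FPKM, a fragment count per unit of transcript length and of sequencing depth, with the replicates merged into a value for each condition. Each level thus stands for n = 2 libraries with no SD, sequencing depth is unknown, and every test quoted is the authors' own from their deposited table, with a gene called past the threshold at a q-value under 0.05. All 5 genes were tested under both lights.

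Red algae collect light with a pair of antenna systems. Photosystem I carries membrane proteins of the Lhcr family, which bind chlorophyll a and carotenoids and pass excitation to the reaction centre. In C. merolae the phycobilisome, a large soluble complex of phycocyanin and allophycocyanin, sits on the stromal face of the thylakoid and feeds mainly photosystem II. Its pigmented subunits are encoded in the chloroplast genome, whereas the linkers named here are encoded in the nucleus and imported. ApcC is the small linker of the allophycocyanin core, and CpcC joins phycocyanin discs within the rods.

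Lhcr1 to Lhcr3 and ApcC all rose under red light and none of the 5 genes rose under blue light, where Lhcr1 fell. CpcC passed the threshold under neither light. The response to red light started from a dark control in which the antenna transcripts, above all those of the Lhcr genes, stood far lower than in the blue dark control. Levels under the lights were much closer to each other than levels in the dark controls.

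**Figure D1:**
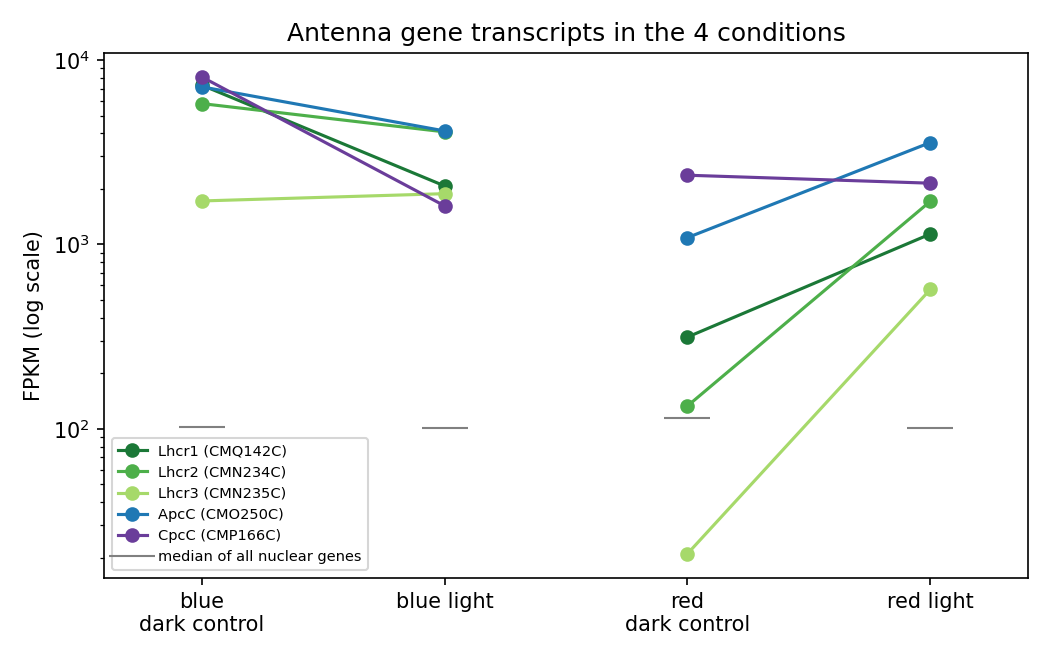
FPKM of the 5 antenna genes on a log axis in the 4 conditions, with a line joining each dark control to its own light and a grey dash at the median of all nuclear genes above 0. Each point is the authors' value for a condition with replicates merged, so no error bar can be drawn. In the blue dark control the genes lie between 1721 and 8105 FPKM, and in the red dark control between 21.0 and 2374 FPKM.

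Lhcr1 (CMQ142C) lies on chromosome 17 at 337673 to 338319, a locus of 647 bp; no source used here states the genome build of this and the other positions. Its FPKM was 7314 in the blue dark control, 2077 under blue light, 315 in the red dark control and 1139 under red light. It was the only member that passed the threshold under both lights, and it did so in opposite directions. Computed from the FPKM, it fell by 1.82 on the log2 scale under blue light, 3.52-fold, and rose by 1.86 on the log2 scale under red light, 3.62-fold. The q-values in the authors' deposited table were 0.00808 and 0.00045. The light-treated levels stood in the same range of the transcriptome, at rank 59 of 4647 nuclear genes under blue light and rank 64 of 4680 under red light, where rank 1 is the highest FPKM. The dark controls did not, with rank 7 of 4654 in the blue experiment and rank 625 of 4679 in the red experiment.

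Lhcr2 (CMN234C) and Lhcr3 (CMN235C) are neighbours on chromosome 14, at 578488 to 579158 and 579811 to 580472, with 652 bp between their loci. Lhcr2 was at 5806 FPKM in the blue dark control, 4078 under blue light, 133 in the red dark control and 1714 under red light. Lhcr3 was at 1721, 1885, 21.0 and 571 FPKM in the same order. For both genes the red dark control was far below every other condition. Lhcr2 went from rank 11 in the blue dark control to rank 2059 in the red dark control, near the middle of the nuclear genes, and Lhcr3 from rank 83 to rank 4200.

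Under red light both genes rose, in the authors' deposited table each with q = 0.00045. The log2 ratio was 3.69 for Lhcr2, which is 12.9-fold, and 4.76 for Lhcr3, which is 27.1-fold. Among 4390 genes tested under both lights and with a ratio in each, only 20 had a higher red ratio than Lhcr3 and 46 a higher one than Lhcr2. Under blue light neither passed the threshold: the log2 ratio was -0.51 with q = 0.532 for Lhcr2 and 0.13 with q = 0.840 for Lhcr3. The Lhcr proteins are related in sequence, and no source used here states how the authors assigned reads that match more than 1 of their genes, so the split among the 3 genes is less certain than their joint level.

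ApcC (CMO250C), on chromosome 15 at 641283 to 641668, is the shortest of the loci at 386 bp. Its FPKM was 7156 in the blue dark control, 4127 under blue light, 1089 in the red dark control and 3570 under red light. It was among the most abundant nuclear transcripts in each condition, with its lowest standing at rank 69 in the red dark control. It rose under red light by 1.71 on the log2 scale, 3.28-fold, with q = 0.00045 in the authors' deposited table. Under blue light the log2 ratio was -0.79 with an unadjusted p of 0.0881 and q = 0.177.

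CpcC (CMP166C), on chromosome 16 at 422228 to 423464 and the longest of the loci at 1237 bp, had a different pattern. It stood at 8105 FPKM in the blue dark control, 1620 under blue light, 2374 in the red dark control and 2149 under red light. Only the blue dark control stood apart, at rank 5 of the nuclear genes. Its blue ratio was the lowest of the 5 genes, -2.32 on the log2 scale or 5.00-fold lower, yet the authors' deposited table gives p = 0.139 and q = 0.250. Such a combination was uncommon: of 142 tested genes with a blue log2 ratio of -2 or lower, 127 were called lower and 15 did not pass. The spread between the replicates behind that test is not in the table. Under red light CpcC had a log2 ratio of -0.14 with q = 0.854, a sign that turned to 0.11 when ratios were centred on the median of all tested genes and to 0.10 when conditions were scaled to a constant upper quartile.

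**Figure D2:**
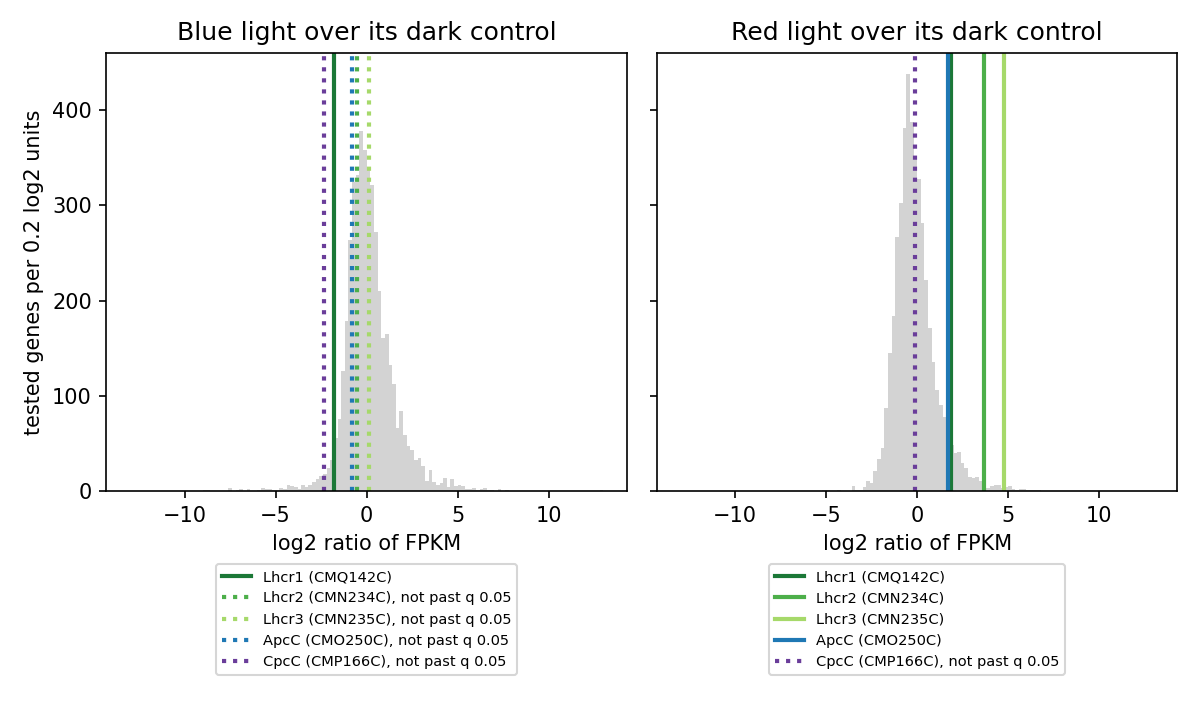
Histograms of the log2 ratio of FPKM, light over its own dark control, for all genes the authors tested with a ratio, with the 5 antenna genes as vertical lines. Solid lines passed the authors' q-value under 0.05 and dotted lines did not; under red light the 4 solid lines lie between 1.71 and 4.76, and under blue light the only solid line is Lhcr1 at -1.82.

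Counted together, 4 of the 5 antenna genes rose and 0 fell under red light, where 14.9% of 4447 tested genes rose and 27.1% fell, 42.0% in all. Under blue light 0 rose and 1 fell, where 22.2% of 4517 tested genes rose and 18.4% fell, 40.6% in all. At an unadjusted p under 0.05 in the authors' Cuffdiff table the counts were again 4 higher and 0 lower under red light, where 18.6% of tested genes stood higher and 33.4% lower. Under blue light they were 0 higher and 1 lower, beside 25.6% and 23.5%. The median log2 ratio of the 5 genes was 1.86 under red and -0.79 under blue light, beside -0.25 and -0.02 over the 4390 genes. The authors' p-value for each of the 4 rises was 5e-05, the smallest in the table and shared by 634 genes of the red comparison, so it does not order them. Of 160 genes at 1000 FPKM or more in the blue dark control, a class that holds all 5 antenna genes, 37 rose under red light, which is 23.1%, and 23 fell, with a median log2 ratio of 0.13. Under blue light 7 of them rose and 64 fell, with a median of -0.80, beside -0.79 for the antenna genes. Choosing this class by a high level in the blue dark control itself lowers its blue ratios, so the 2 medians cannot be weighed against each other.

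The genes kept nearly the same order under both lights. From the highest to the lowest blue ratio they ran Lhcr3, Lhcr2, ApcC, Lhcr1, CpcC, and from the highest to the lowest red ratio Lhcr3, Lhcr2, Lhcr1, ApcC, CpcC. The neighbours Lhcr1 and ApcC in the red order differed by little, with 1.86 and 1.71. The red ratio exceeded the blue ratio for every one of the 5, by 4.63 log2 units for Lhcr3, 4.20 for Lhcr2, 3.67 for Lhcr1, 2.51 for ApcC and 2.18 for CpcC. Only 15 of the 4390 genes had a larger difference than Lhcr3 in that direction, and 123 had a larger one than CpcC, against a median of -0.22 over all of them. Each of these differences equals the lit difference minus the dark-control difference, red minus blue experiment, both given below. For all but CpcC the deposited lit level was lower in the red experiment, so the excess lay in the lower red dark control. These differences have no test, because the table holds no values per library, and the dose of red light is not given.

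The dark controls differed more than the lit conditions did for each of the 5 genes. Between the dark controls, red minus blue experiment, the log2 difference was -6.35 for Lhcr3, -5.45 for Lhcr2, -4.54 for Lhcr1, -2.72 for ApcC and -1.77 for CpcC. Expressed as folds these are 81.8, 43.6, 23.2, 6.57 and 3.41, all lower in the red experiment. Lhcr3 and Lhcr2 held the second and the third lowest place among the 4390 genes and Lhcr1 the 11th, whereas the median over all genes was 0.18. ApcC and CpcC stood at places 94 and 230 from the lowest.

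Between the lit conditions the same genes differed far less. Red minus blue light, the log2 difference was -1.72 for Lhcr3, -1.25 for Lhcr2, -0.87 for Lhcr1, -0.21 for ApcC and 0.41 for CpcC, beside a median of -0.17. The value for ApcC turned to 0.17 when each condition was scaled to a constant nuclear sum. Even after the rise under red light, all 5 genes stood below the blue dark control, from 2.00-fold for ApcC to 6.42-fold for Lhcr1. No source used here states whether the authors scaled the experiments together, and the comparisons across experiments have no test. In these bulk libraries, fewer cells holding a transcript and less of it in each cell cannot be told apart.

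**Figure D3:**
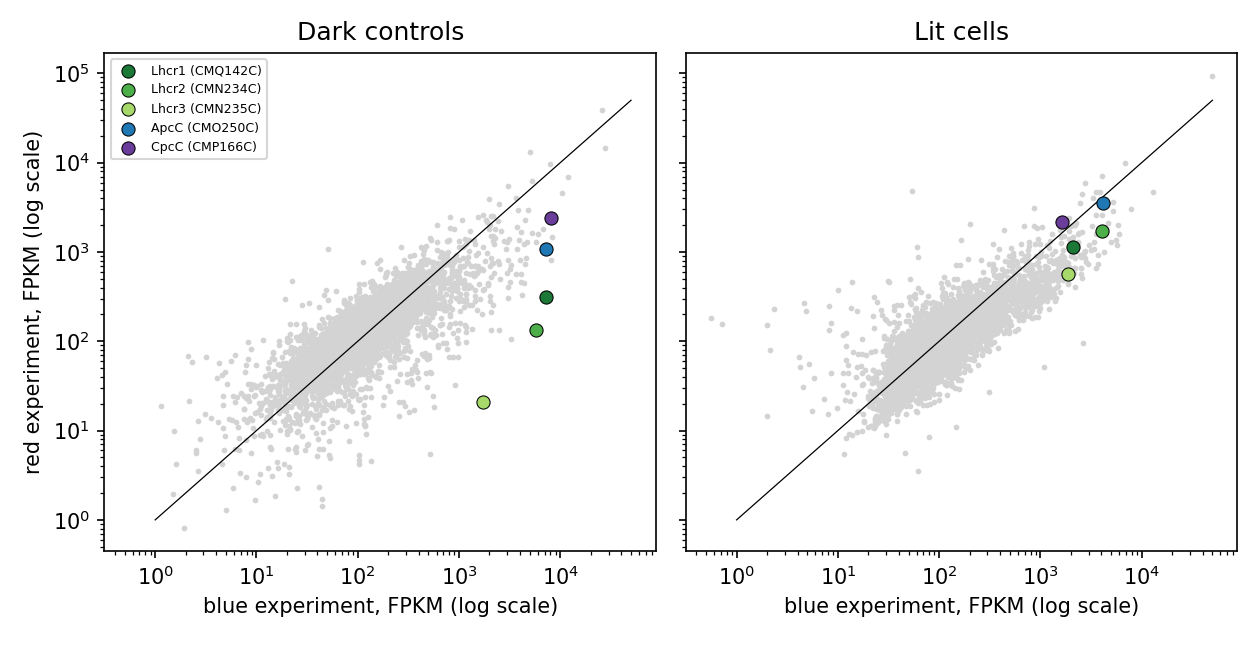
FPKM in the red experiment against FPKM in the blue experiment on log axes, for dark controls on the left and lit cells on the right, with 4390 genes in grey, the 5 antenna genes in colour and the line of equal FPKM in black. The antenna genes lie 3.41 to 81.8-fold below the line in the dark and between 3.30-fold below and 1.33-fold above it in the light.

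Other transcripts moved with this difference between the dark controls. The 42 chloroplast loci among the 4390 genes had a median log2 difference of -2.55 between the dark controls and median ratios of 0.47 under blue and 2.43 under red light. RNA was selected on oligo(dT) beads, and the part of this selection in the chloroplast values was not tested. For the 160 abundant genes the median difference between the dark controls was -1.46, a value that the choice by a high level in the blue dark control itself lowers. Only 11 of those genes were under 200 FPKM in the red dark control, a class bounded after the values were seen, and Lhcr2 and Lhcr3 are among them. What part a difference between cultures, RNA or libraries of the 2 experiments has in the antenna values was not tested.

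Ratios between antenna genes inside a condition do not depend on how conditions were scaled to each other. In the blue experiment the summed FPKM of the 3 Lhcr genes was 0.972 times that of the linkers in the dark and 1.40 times under light. In the red experiment it was 0.135 times that of the linkers in the dark and 0.599 times under light. The rise of this ratio from dark to light was 1.44-fold under blue and 4.42-fold under red light. With ApcC as the only linker, an alternative chosen after seeing the data because CpcC passed no test, the ratio was 2.07 in the dark and 1.95 under light in the blue experiment, so its direction under blue light depended on CpcC. In the red experiment it still went up, from 0.431 to 0.959.

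Within the Lhcr family the balance moved the same way under both lights. Lhcr1 made up 49.3% of the summed Lhcr FPKM in the dark and 25.8% under light in the blue experiment, and 67.1% and 33.3% in the red experiment. Lhcr3 had 11.6% and 23.4% in the blue experiment, and 4.49% and 16.7% in the red experiment. Lhcr2 had the largest share under either light, 50.7% under blue and 50.1% under red. Lhcr1 was thus the leading Lhcr transcript in both dark controls and Lhcr2 in both lit conditions.

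The linkers changed rank as well. ApcC was at 0.883 times the FPKM of CpcC in the dark and 2.55 times under blue light, a 2.89-fold change of the ratio. In the red experiment it was at 0.459 times in the dark and 1.66 times under light, a 3.62-fold change. CpcC led in both dark controls and ApcC in both lit conditions. Under blue light neither linker passed the threshold, and under red light only ApcC did. None of these shares and ratios has a replicate error or a test, and the long locus of CpcC and the short locus of ApcC are already allowed for in FPKM only as far as the authors' length correction goes.

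**Figure D4:**
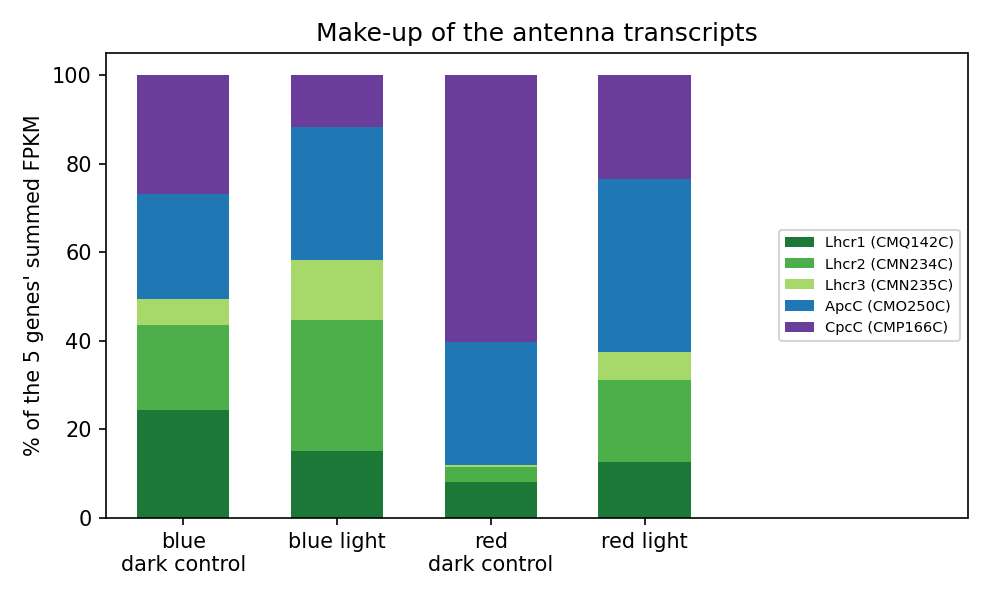
Share of each antenna gene in the summed FPKM of the 5 genes, in percent, for the 4 conditions, with the Lhcr genes in green and the linkers in blue and purple. CpcC takes 60.4% of the sum in the red dark control against 11.8% to 26.9% in the other conditions, and Lhcr3 takes 0.535% there against 5.72% to 13.7%.

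Set against the nuclear transcriptome, the 5 genes held 2.80% of the summed nuclear FPKM in the blue dark control and 1.30% under blue light. They held 0.438% in the red dark control and 1.12% under red light. The 3 Lhcr genes gave 1.38%, 0.759%, 0.0523% and 0.419% of the sum in these conditions, and the linkers 1.42%, 0.543%, 0.386% and 0.700%. The antenna genes were thus most prominent in cells kept dark in the blue experiment, and the Lhcr part was least prominent in cells kept dark in the red experiment. The spread among the 5 was 4.71-fold from the lowest to the highest FPKM in the blue dark control, 2.55-fold under blue light, 113-fold in the red dark control and 6.26-fold under red light.

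The genes on either side of the antenna loci were less abundant than all 5 antenna genes in the blue dark control, but not in the red dark control. They are the nearest loci among the 5091 deposited gene IDs, so a gene without a deposited ID could lie between. The 8 flanking genes had 18.3 to 196 FPKM in the blue dark control, where the lowest antenna gene had 1721, and 13.8 to 200 FPKM in the red dark control, a range that holds Lhcr3 at 21.0 and Lhcr2 at 133. By q-value in the authors' deposited table, 4 of them were higher and 1 lower with red light. With blue light 2 were higher and 0 lower. Over all tested genes the same rule called 14.9% higher and 27.1% lower in the red comparison. In the blue comparison it called 22.2% higher and 18.4% lower. Whether the 8 flanking genes depart from these shares was not tested, and their roles are not annotated in the sources used here.

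The pair Lhcr2 and Lhcr3 had flanking genes that rose under both lights on either side. CMN237C, 1784 bp beyond Lhcr3, was at 37.8 FPKM in the blue dark control, 1023 under blue light, 13.8 in the red dark control and 278 under red light. Its log2 ratios of 4.76 and 4.33 each had q = 0.00045 in the authors' deposited table. CMN233C, 1011 bp before Lhcr2, rose under blue light from 67.4 to 492 FPKM and under red light from 46.7 to 130 FPKM, with log2 ratios of 2.87 and 1.48 and q-values of 0.00045 and 0.0231. Under blue light these neighbours therefore rose where Lhcr2 and Lhcr3, between them, did not pass the threshold.

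Around the other members, 2 flanking genes passed the threshold as higher and 1 as lower in red light, and none passed the threshold under blue light. CMQ141C, beside Lhcr1, rose under red light from 134 to 214 FPKM with q = 0.0461, and CMO249C, beside ApcC, from 35.2 to 97.2 FPKM with q = 0.00257. CMP167C, beside CpcC, fell under red light from 200 to 120 FPKM with q = 0.0309. CMQ144C, CMO253C and CMP165C did not pass under red light either. The labels mention no strand-marking step. No flanking locus overlapped an antenna locus, the smallest gap being 554 bp. Genes without a deposited ID were not looked for in these gaps. The loci are close to the coding length where it is known, as 647 and 645 bp for Lhcr1. Whether transcripts overlap beyond the loci was not tested.

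**Figure D5:**
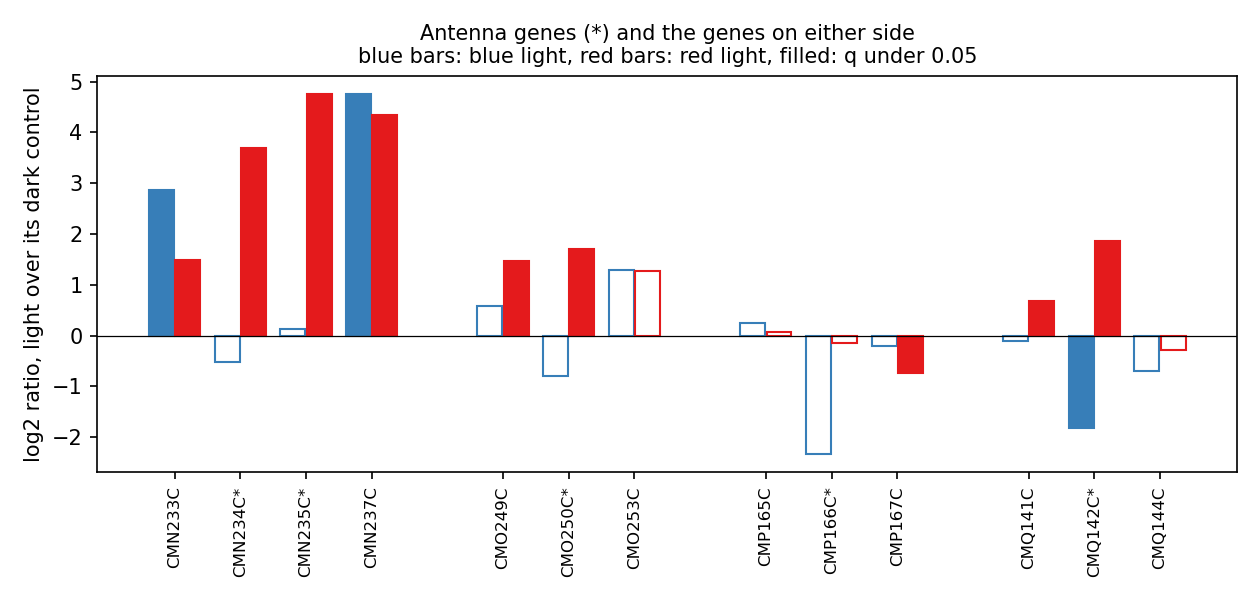
The log2 ratio of light over its dark control for the antenna genes, marked with asterisks, and the nearest deposited gene on each side. Genes are in chromosome order, with blue bars for blue and red bars for red light. Filled bars passed the authors' q-value under 0.05 and open bars did not; CMN237C has bars of 4.76 and 4.33, and Lhcr3 beside it bars of 0.13 and 4.76.

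Likeness of pattern was measured as the Euclidean distance between log2 FPKM values over the 4 conditions, each gene centred on its own mean, among the 4390 genes. It describes 4 merged values per gene and has no test. Lhcr2 was the second nearest of 4389 genes to Lhcr3, at a distance of 1.12, and Lhcr3 the eighth nearest to Lhcr2. Lhcr1 was nearer to ApcC, at 1.44, than to Lhcr2 at 1.72 or Lhcr3 at 2.81. ApcC was in place 25 of 4389 from Lhcr1, but Lhcr1 only in place 329 from ApcC. CpcC was farther from Lhcr3, at 5.13, than from any other member, and its nearest member was ApcC at 1.87. That is an ordinary distance, since ApcC was only in place 1789 of 4389 from CpcC and the median gene lay at 2.00.

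The genes nearest to each member are named by ID only, since the files give them no function. They were chosen by the same FPKM values that give the ratios, so ratios like those of the member follow from the choice. ApcC had the closest match, CMI248C at a distance of 0.12, with 3682, 2007, 569 and 1957 FPKM in the order used above. CMV154C at 0.18 and CMV233C at 0.23, both loci of the chloroplast genome, came next. Nearest to CpcC were CMN338C at 0.30, CMQ107C at 0.35 and CMP157C at 0.36, and each of these fell under blue light with q = 0.00045 in the authors' deposited table. CMQ107C was nearly as abundant as CpcC, at 6760 FPKM in the blue dark control, 1034 under blue light, 1824 in the red dark control and 1885 under red light.

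The genes nearest to the Lhcr genes lay at larger distances, but so did genes in general. The median distance to all genes was 3.52 for Lhcr1, 4.49 for Lhcr2 and 5.47 for Lhcr3, beside 2.34 for ApcC and 2.00 for CpcC. Nearest to Lhcr1 were CMR004C at 0.73, CMK262C at 0.84 and CMP115C at 0.91, all of which, like Lhcr1, fell under blue and rose under red light. CMK262C went from 3072 to 1333 FPKM under blue light with q = 0.0132 and from 302 to 758 FPKM under red light with q = 0.00045. Nearest to Lhcr2 were CMS189C at 0.62, CMS043C at 0.79 and CMP012C at 0.89, which rose under red light and did not pass the threshold under blue light. Nearest to Lhcr3, beside Lhcr2, were CMI202C at 0.94, whose red log2 ratio of 5.82 had q = 0.270, and the chloroplast locus CMV158C at 1.26, which rose from 18.2 to 467 FPKM under red light with q = 0.00446.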

How the data were processed

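RNA was selected on oligo(dT) beads and sequenced as pairs of 75 bp reads, per the labels. Tools listed in the submitters' processing notes are TopHat2 2.0.5, TopHat, Cuffdiff, Trimmomatic 0.32 and FastQC 0.11.5; build and annotation are not stated there. The authors deposited FPKM with replicates merged per condition. The authors' deposited p-values and q-values come 1 per gene and comparison, and the adjustment behind the q-values is not stated. Log2 ratios were computed here from the FPKM with no pseudocount or filter on low values. No test across libraries was made, since the table holds none. Members and lists were chosen with earlier results of these data known. Genes named are the 5 members, the nearest deposited gene on each side of each, and for each member the 3 genes nearest in pattern. Planned lists of other antenna and photosynthesis genes by annotation were not analysed, because 0 of 5373 entries of the reference table, assembly ASM9120v1, have a symbol beyond the locus tag; protein and promoter comparisons were not made either. The reference table matched 4752 of 5091 IDs, among them 4 members. For want of annotation, the light labels were not checked against marker genes. Alternatives were pseudocounts of 1 and 10 FPKM, centring, scaling to a constant nuclear sum or upper quartile, a length trend (running median of 501 genes), a stricter q-value of 0.01 and Benjamini-Hochberg values within a comparison. Software was Python 3.11.15 with pandas 2.3.3, numpy 2.4.6, scipy 1.17.1 (self-test only) and matplotlib 3.10.9; the multiple-testing and likeness steps were tested on simulated data.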

Additional observations from a re-analysis of the deposited data

Results flagged for a closer look

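The merged values of 3 antenna genes moved in opposite directions under the lights, which was not tested as a difference. For CMQ142C (Lhcr1), the red log2 ratio exceeded the blue one by 3.67, and both ratios passed the authors' threshold, one lower and one higher. For CMN234C (Lhcr2) the difference was 4.20 and for CMO250C (ApcC) 2.51, with only the rise under red light past the threshold. Between the experiments, the dark controls of these 3 genes differed by 6.57 to 43.6-fold and their lit levels by 1.16 to 2.38-fold.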

How the results depend on the processing

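For each of the 5 genes, the side of the threshold stayed as reported under the stricter q-value and under Benjamini-Hochberg values within a comparison, and 1 and 4 genes passed under blue and red light in either case. Of 124 alternative values, 118 counted as unchanged, 2 moved by more than 1.5-fold and 4 changed sign. Several alternatives, such as small pseudocounts on abundant transcripts, could hardly change a direction. None draws on values per library, so the tally does not measure the spread between replicates. For log2 ratios of light over dark, unchanged meant the same direction. Differences between the experiments that were counted as unchanged also kept their direction. For call rules, which repeat the same ratio, it meant the same side of the threshold. For counts of genes it meant within 1.5-fold. The red log2 ratio of CpcC, not past the threshold, became 0.11 with centring and 0.098 with a constant upper quartile. The difference between the lit conditions for ApcC became 0.17 with a constant nuclear sum. With ApcC as the only linker, added after seeing the data, the log2 of the ratio of Lhcr to linker FPKM became 1.05 in the blue dark control, -1.22 in the red dark control and -0.06 under red light. The red log2 ratio of Lhcr3 ran from 4.23 to 5.02 over its alternatives, and that of Lhcr1 from 1.82 to 2.11. The causes of these shifts were not tested. The number of genes called was 1259 to 1896 under blue light and 1268 to 1959 under red light across the adjusted call rules, and 2221 and 2312 at an unadjusted p under 0.05. No paired analysis was possible because the table holds merged values without replicate numbers, and leaving out a replicate was not run for the same reason. Depth is unknown, so no counting error can be given.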
